A study of Mus musculus with 8 samples.

Results

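The gamma crystallins are the 8 genes Cryga, Crygb, Crygc, Crygd, Cryge, Crygf, Crygn and Crygs, chosen by gene symbol among the 35275 rows of the deposited expression table. All 8 were found, 1 row each, and all 8 were among the 9794 genes tested between groups. They were measured by RNA-Seq in lens fiber cells (FC), the elongated cells that make up most of the lens, of C57BL/6 mice (C57BL/6J in the study's methods) aged 3.5 months. The cigarette smoke (CS)-exposed mice were born in a whole-body smoke chamber, into which their mothers had been moved late in pregnancy, and had been kept there with smoke for 5 hours/day and 5 days/week over 3.5 months, and the untreated control (Ct) mice were of the same age and were housed in the animal facility. Each group gave 4 libraries, here Ct1 to Ct4 and CS1 to CS4, and each library was a pool of FC from the right eyes of 4 mice. The pools of each group were 2 male and 2 female, and sex was not used here because it is not given for each library. No transgene or mutation is named for either group. The p-values below measure the spread between pools.

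Crystallins are the soluble proteins that fill the fiber cell and give the lens its refractive power. Gamma crystallins are compact monomers of paired domains, each folded from Greek key motifs, and are packed most densely in the centre of the lens. Cryga to Cryge lie side by side in the genome and are switched on in fiber cells as they differentiate. Crygs is the gamma crystallin of the later lens cortex, and Crygn is a distant relative whose gene structure is shared in part with beta crystallins. Mutations in several of these genes cause cataracts in mice.

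In GRCm38, the build to which the authors aligned the reads, Cryga to Cryge span 54.8 kb of chromosome 1 on the minus strand (chr1:65048554-65103373). Crygf lies 823 kb from Cryga on the plus strand (chr1:65926520-65928307). Crygn is on chromosome 5 (chr5:24751003-24758008, minus strand) and Crygs on chromosome 16 (chr16:22805203-22811577, minus strand). Their first annotated transcripts have 3 exons each, except that of Crygn with 4. In the classical gamma crystallins exon 2 encodes the first of the paired domains. It has 243 bases in 7 of the members, Crygn being the exception. The members are close copies of each other, which bears on how well their reads can be told apart, so the exon 2 sequences of the closest sets are given here. Over exon 2, Crygb and Crygc differed at 4 of 243 bases (98.4% identity), and these bases are in capitals.
Crygb (chr1:65081915-65082157, minus strand): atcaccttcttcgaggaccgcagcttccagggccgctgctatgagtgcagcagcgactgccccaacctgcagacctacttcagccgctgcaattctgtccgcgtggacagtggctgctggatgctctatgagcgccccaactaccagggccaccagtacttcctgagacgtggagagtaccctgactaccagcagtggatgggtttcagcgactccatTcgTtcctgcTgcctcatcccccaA
Crygc (chr1:65073162-65073404, minus strand): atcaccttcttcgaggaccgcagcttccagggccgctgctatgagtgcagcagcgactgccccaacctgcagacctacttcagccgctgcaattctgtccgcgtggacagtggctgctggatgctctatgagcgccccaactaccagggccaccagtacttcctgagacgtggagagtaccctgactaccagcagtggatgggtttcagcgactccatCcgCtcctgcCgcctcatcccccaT

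Crygd, Cryge and Crygf form the other set. Crygd and Cryge differed at 2 bases of exon 2 (99.2% identity), Cryge and Crygf at 3 (98.8%) and Crygd and Crygf at 5 (97.9%). The 5 positions at which the sequences of this set differ are in capitals.
Crygd (chr1:65063059-65063301, minus strand): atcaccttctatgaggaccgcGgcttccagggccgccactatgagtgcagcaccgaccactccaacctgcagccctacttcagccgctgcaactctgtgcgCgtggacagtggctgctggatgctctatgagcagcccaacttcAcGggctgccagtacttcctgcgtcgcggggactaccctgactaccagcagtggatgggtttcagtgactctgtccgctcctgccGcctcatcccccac
Cryge (chr1:65050770-65051012, minus strand): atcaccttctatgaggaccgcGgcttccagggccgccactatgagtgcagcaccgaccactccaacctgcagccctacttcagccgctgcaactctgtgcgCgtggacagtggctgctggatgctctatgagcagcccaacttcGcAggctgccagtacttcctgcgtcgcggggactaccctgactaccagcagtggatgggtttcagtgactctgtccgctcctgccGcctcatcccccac
Crygf (chr1:65926648-65926890, plus strand): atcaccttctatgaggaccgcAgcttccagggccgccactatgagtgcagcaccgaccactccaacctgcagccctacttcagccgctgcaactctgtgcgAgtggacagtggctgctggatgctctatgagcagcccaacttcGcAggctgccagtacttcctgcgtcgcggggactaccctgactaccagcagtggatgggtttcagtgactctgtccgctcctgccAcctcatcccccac

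Crygs stood apart, with 63.0 to 65.4% identity to exon 2 of Cryga to Crygf. Reads had a length of 150 bases. Of all windows of 150 bases in the first annotated transcript, 14.8% in Crygb and 11.4% in Crygc were shared between these genes. Crygd and Cryge shared 6.68% and 6.43% of theirs. No window of Crygf, Crygn or Crygs was found in a transcript of another gene. Cryga overlaps the annotated gene Gm28845, with which it shared 350 of its 625 exonic bases and 42.2% of its windows. The values of Cryga, of Crygb against Crygc and of Cryge against Crygd are therefore uncertain, since how the authors counted a read that fits several genes is not given in the sources used here. Cryge is the most exposed of the pairs by level, as it was read at 0.259 to 0.367% of the level of Crygd, and the part of Crygd reads in its values was not tested.

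The deposited values are FPKM, a read count divided by gene length and by the mapped reads of the library. As a gene's FPKM moves in steps of 1 read, whole reads could be recovered for each of the 9794 tested genes (100%), which gave an estimated 18100000 to 23300000 fragments a library. The fiber cell label was checked against markers. All 10 fiber cell markers of a fixed list were detected, from Lim2 at a mean of 7.48 FPKM to the beaded filament gene Bfsp1 at 7805 FPKM, and their summed FPKM was 17540 to 19860 in untreated Ct and 19600 to 20140 in CS-exposed libraries. The 6 markers of lens epithelium summed to 57.9 to 116 FPKM in untreated Ct and 47.0 to 76.5 FPKM in CS-exposed libraries.

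The members fell into an abundant and a sparse set. Crygs, Crygb, Crygd and Crygc had mean levels of 41728, 38709, 33139 and 28978 FPKM over the 8 libraries, and Crygf, Cryge, Crygn and Cryga had mean levels of 204, 103, 64.7 and 5.10 FPKM. The step between the sets was 142-fold, from Crygc to Crygf, and was 129- to 159-fold in single libraries. The 4 abundant members made up 99.7% of all gamma crystallin FPKM in both groups. By recovered reads, the 8 members took 9.21 to 9.90% of all fragments in untreated Ct and 9.65 to 10.3% in CS-exposed libraries.

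**Figure D1:**
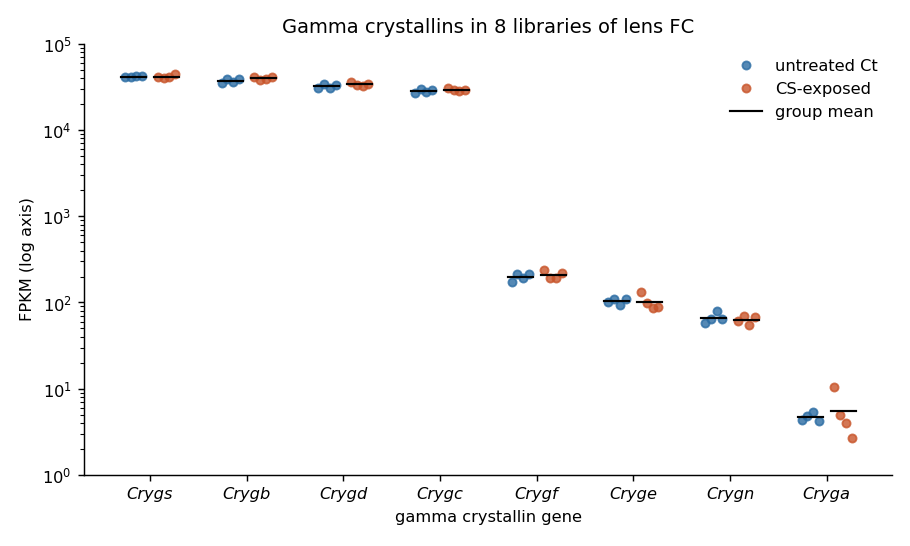
FPKM (log axis) of each gamma crystallin in the 4 untreated Ct (blue) and 4 CS-exposed (orange) libraries, with group means as black lines. Crygs, Crygb, Crygd and Crygc lie between 27242 and 44657 FPKM, and the other members lie below 239 FPKM, with Cryga near 5 FPKM and its CS-exposed libraries the most spread.

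The order of the levels was tested within libraries, as the log2 ratio of neighbours, with a two-sided exact sign-flip permutation test and adjustment over the 7 neighbour pairs. Crygb exceeded Crygd 1.17-fold, Crygd exceeded Crygc 1.14-fold, Crygf exceeded Cryge 1.99-fold, Cryge exceeded Crygn 1.59-fold and Crygn exceeded Cryga 13.5-fold, each in 8 of 8 libraries. For these pairs, and for Crygc against Crygf, the exact permutation p was 0.0078, the smallest it can be (adjusted p = 0.0091). Crygs exceeded Crygb 1.08-fold in 7 of 8 libraries (exact permutation p = 0.0156, adjusted p = 0.0156), and CS1 was the library in which Crygb was the higher of the pair. The order was the same in each group alone, where 4 libraries cannot give an exact p below 0.125.

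The order within the abundant set depended on the gene length behind the FPKM. For 7 of the 8 members the length that fits the deposited values is that of the longest annotated transcript. For Crygs it was 708 bases, against 875 bases in the annotation used here. With the length of the first annotated transcript for each gene, the order became Crygb (38709 FPKM), Crygd (34058 FPKM), Crygs (33764 FPKM) and Crygc (28978 FPKM), and Crygd exceeded Crygs in 3 of 8 libraries (exact permutation p = 0.742). With the shortest complete coding transcript, Crygc rose to 37075 FPKM and came next to Crygb. Crygb was above Crygd in 8 of 8 libraries under each of these lengths. The order of Crygf, Cryge, Crygn and Cryga was the same under all 3 lengths, and they stayed below the abundant set, by 142-fold with the first annotated transcript and by 157-fold, from Crygs to Crygf, with the shortest one. A length rescales a gene alike in every library and leaves the comparison of groups as it is.

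**Figure D2:**
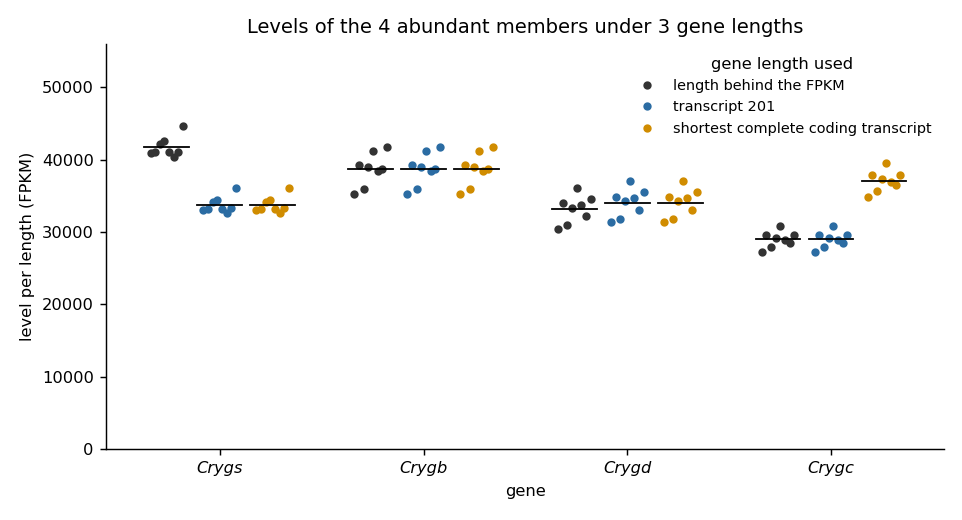
Level per length (FPKM) of Crygs, Crygb, Crygd and Crygc in the 8 libraries (points) and their mean (line), with the length behind the deposited FPKM (black), the first annotated transcript (blue) and the shortest complete coding transcript (gold). Crygs falls from a mean of 41728 to 33764 FPKM with the annotated lengths, and Crygc rises from 28978 to 37075 FPKM with the shortest one, so that these genes change rank while Crygb stays at 38709 FPKM.

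CS exposure was compared with no treatment on the log2(FPKM + 0.1) scale, fitted with limma over the 9794 genes that averaged 1 FPKM or more in at least 1 of the groups. This scale understates changes of low genes. No gamma crystallin passed an adjusted p under 0.05, as against 0.0102% of all tested genes (1 gene). The smallest adjusted p among the members was 0.956. At an unadjusted p under 0.05, 1 of 8 members (Crygb, higher) was called, as against 4.83% of all tested genes in either direction and 2.75% in the higher direction. In no member did the CS-exposed and untreated Ct libraries stand fully apart, as they did in 3.08% of all genes. The fold changes were above 0 in 6 members and below 0 in 2, with 51.2% above 0 among all genes. The median log2 fold change was 0.055 over the members and 0.0043 over all genes, and the median size regardless of direction was 0.062 and 0.084. In pooled tissue, fewer cells of a type and less RNA per cell cannot be told apart.

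**Figure D3:**
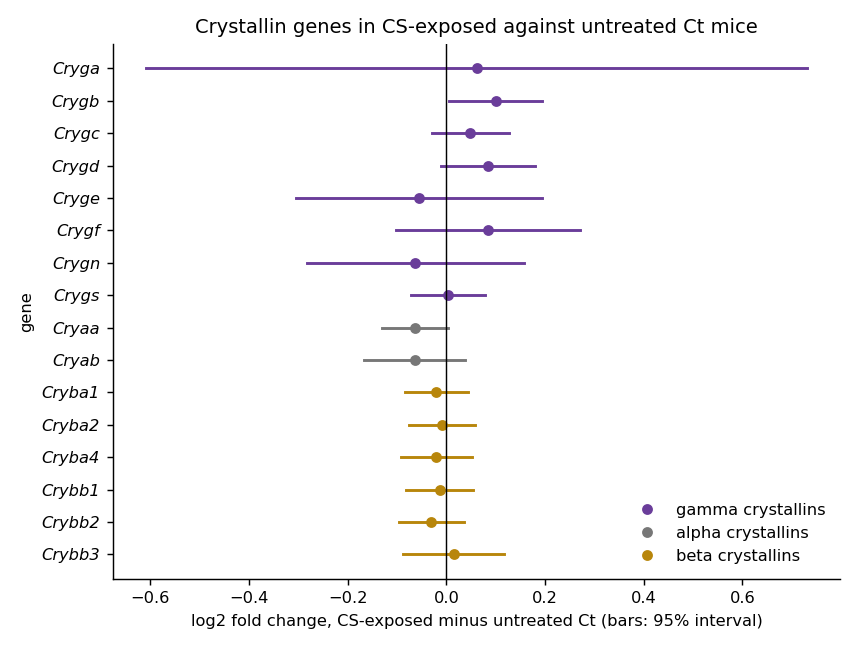
Log2 fold change of CS-exposed against untreated Ct mice (points) with its 95% interval (bars) from limma for the 8 gamma (purple), 2 alpha (grey) and 6 beta (gold) crystallins. The interval of Crygb, from 0.0063 to 0.19, lies above 0, all the others hold 0, and that of Cryga is the widest, from -0.61 to 0.73.

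Mouse mutations in Crygb cause dominant nuclear cataracts, and the study reported diminished CRYGB protein in FC of CS-exposed mice, from left eyes. The RNA of Crygb was read at 35292, 39301, 35875 and 39039 FPKM in Ct1 to Ct4. In CS1 to CS4 it was read at 41262, 38388, 38771 and 41742 FPKM. CS1 and CS4 were above every untreated Ct library, and Ct1 and Ct3 were below every CS-exposed library. The other libraries went the opposite way, as Ct2 and Ct4 were both above CS2 and CS3. The log2 fold change was 0.10 (SE 0.043, adjusted p = 0.956), a level 7.18% higher with a 95% interval of 0.437 to 14.4%. Its unadjusted limma p was 0.0385, while the two-sided exact permutation test over all 70 assignments of the libraries gave p = 0.171, where the smallest possible is 0.0286. The unadjusted limma p no longer passed 0.05 without Ct1, Ct3, CS1 or CS4, with log2 fold changes of 0.07, 0.08, 0.09 and 0.08. It also did not pass with centring on the median (0.09), scaling to genes other than crystallins (0.08), no trend or no minimum FPKM (0.10 each). It passed in 10 of 19 alternatives, and was smallest in a limma-voom fit of recovered reads (unadjusted p = 0.00574). Quantile normalization, where the log2 fold change was 0.03 and did not pass, gives each rank 1 value in all libraries. For the few most abundant genes it shows changes of rank only and cannot tell whether a small difference holds.

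Crygd, the gene next to Crygc in the cluster, was read at 30462, 33953, 30901 and 33371 FPKM in Ct1 to Ct4 and at 36012, 33697, 32168 and 34548 FPKM in CS1 to CS4. Again Ct1 and Ct3 were the lowest and CS1 and CS4 the highest, and the groups overlapped. It was higher in CS-exposed mice by a log2 fold change of 0.08 (SE 0.044, limma adjusted p = 0.956, exact permutation p = 0.171), or 6.04% with an interval of -0.750 to 13.3%. Without Ct2 or without CS3 the difference was 0.11 and passed an unadjusted limma p of 0.05. With all 8 libraries it did not pass in this fit, but did in a limma-voom fit of recovered reads (unadjusted p = 0.0186). The difference was 0.06 without Ct1 or without CS1. It was 0 with quantile normalization, which shows changes of rank only for genes this abundant.

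Crygc, whose exon 2 is nearly that of Crygb, was read at 27242, 29642, 27877 and 29208 FPKM in Ct1 to Ct4 and at 30888, 28879, 28479 and 29609 FPKM in CS1 to CS4. CS1 was above all other libraries, Ct1 and Ct3 were the lowest, and the rest were mixed. This gave a log2 fold change of 0.05 (SE 0.036, limma adjusted p = 0.956, exact permutation p = 0.286), or 3.42% with an interval of -2.02 to 9.16%. It was 0.03 without CS1 or without Ct1. It was also 0.03 with quantile normalization, which shows changes of rank only for genes this abundant.

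Crygs, the gamma crystallin of the cortex, had the smallest difference of the 8. It was read at 40898, 41060, 42183 and 42566 FPKM in Ct1 to Ct4 and at 41023, 40327, 41110 and 44657 FPKM in CS1 to CS4. CS4 held the highest value and CS2 the lowest, so that the untreated Ct libraries lay within the range of the CS-exposed ones. The groups differed by a log2 fold change of 0.0026 (SE 0.034, limma adjusted p = 0.995, exact permutation p = 0.886), with an interval of -4.87 to 5.50% for the change in level. Its sign turned under scaling to genes other than crystallins (-0.02) and centring on the median (-0.0025). The sign also turned without Ct1 (-0.0064), without Ct2 (-0.0045) or without CS4 (-0.03). With quantile normalization the log2 fold change was -0.03, which reflects changes of rank only for genes this abundant.

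The sparse members spread more. Crygf was read at 171, 212, 195 and 216 FPKM in Ct1 to Ct4 and at 239, 193, 191 and 218 FPKM in CS1 to CS4. CS1 was the highest and Ct1 the lowest, with the groups overlapping. In limma the log2 fold change was 0.08 (SE 0.085, adjusted p = 0.976, exact permutation p = 0.457), or 6.03% with an interval of -6.84 to 20.7%. It was 0.0148 without Ct1 and 0.0214 without CS1, and reached 0.13 without CS3 or without Ct4.

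Cryge was read at 102, 111, 94.4 and 109 FPKM in Ct1 to Ct4 and at 132, 98.0, 86.4 and 89.4 FPKM in CS1 to CS4. CS1 was the highest library of all, and CS3 and CS4 were below every untreated Ct library. A log2 fold change of -0.06 resulted (SE 0.11, limma adjusted p = 0.989, exact permutation p = 0.771), or -3.75% with an interval of -19.0 to 14.4%. This value rested on single libraries, as it was -0.19 without CS1, where it passed an unadjusted limma p of 0.05 (adjusted p = 0.974, and 0.944 to 1 over all alternatives), and 0.02 without CS3. CS1 had 1925 reads on Cryge (exact Poisson 95% interval 126 to 138 FPKM), against 1224 reads in CS3 (81.7 to 91.4 FPKM), and these intervals cover counting error only.

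Crygn was read at 57.2, 64.4, 79.6 and 63.6 FPKM in Ct1 to Ct4 and at 60.7, 70.3, 54.9 and 66.9 FPKM in CS1 to CS4. Ct3 was the highest and CS3 the lowest, and the CS-exposed libraries were otherwise within the range of the untreated Ct ones. The difference was a log2 fold change of -0.06 (SE 0.10, limma adjusted p = 0.985, exact permutation p = 0.657), or -4.25% with an interval of -17.8 to 11.5%. It turned to 0.03 without Ct3 and to 0.0026 without CS3. Ct3 also had the most RNA of epithelial markers, at a sum of 116 FPKM against 47.0 to 76.5 FPKM in the other 7 libraries, with Foxe3 at 64.0 FPKM. Whether the epithelial RNA had a part in the level of Crygn was not tested.

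Cryga was the rarest member and rested on 42 to 158 reads a library. It was read at 4.28, 4.80, 5.40 and 4.24 FPKM in Ct1 to Ct4 and at 10.4, 4.89, 4.01 and 2.71 FPKM in CS1 to CS4. CS1 held the highest and CS4 the lowest value of all 8 libraries, which lay 3.86-fold apart, while the untreated Ct libraries lay close together. The exact Poisson 95% interval was 8.88 to 12.2 FPKM in CS1 and 1.95 to 3.66 FPKM in CS4, and these intervals leave out the variation between pools. Between groups the log2 fold change was 0.06 (SE 0.31, limma adjusted p = 0.995, exact permutation p = 0.886), or 4.34% with an interval of -34.4 to 66.1%. Without CS1 it was -0.30 and without CS4 it was 0.34, neither of which passed an unadjusted limma p of 0.05.

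The precision of these comparisons differed widely among members. The SD of log2 FPKM within groups was 0.051 in Crygs, 0.054 in Crygc, 0.072 in Crygb and 0.073 in Crygd. It was 0.15 in Crygf, 0.18 in Crygn, 0.21 in Cryge and 0.58 in Cryga. The median over all tested genes was 0.17, and over the 657 genes above 50 FPKM it was 0.072. Crygs thus varied less than all but 2.64% of the tested genes, and Cryga more than 96.4% of them.

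Across libraries, the clustered and abundant members followed each other more closely than their own spread. The within-group SD of the log2 ratio was 0.023 for Crygc to Crygd, 0.033 for Crygb to Crygd and 0.033 for Crygb to Crygc. If the members of a pair varied independently, the SD would be 0.091, 0.10 and 0.090. For the ratios to Crygs the SD was 0.065 with Crygb, 0.068 with Crygc and 0.082 with Crygd, against 0.088, 0.074 and 0.089 if unrelated. Genes of 1 library share its scaling, which such ratios remove. Ratios between other crystallins were not taken, so whether such closeness is particular to these members was not tested. The ratio of Crygd to Crygf had a within-group SD of 0.092, against 0.17 if unrelated, and a mean that differed by 0.0001 between the groups on the log2 scale. Relative to Crygd, the level of Cryge was 0.306 to 0.336% in untreated Ct and 0.259 to 0.367% in CS-exposed libraries. CS1 was the highest library in 5 members (Cryga, Crygc, Crygd, Cryge and Crygf), and Ct1 the lowest in 4 (Crygb, Crygc, Crygd and Crygf).

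Ct3 and Ct1, in which Crygb, Crygc and Crygd were lowest, also had the lowest summed FPKM of fiber cell markers, at 17540 and 18950, and the other 6 libraries had 19600 to 20140. The part of the fiber cell share in these differences was not tested. Markers of other cell types were read as well. The 12 rod photoreceptor markers summed to 11.9 to 32.7 FPKM in untreated Ct and 35.8 to 105 FPKM in CS-exposed libraries, none of them at 0 in every library, and 10 of the 11 tested were higher at an unadjusted limma p under 0.05 (2.75% of all tested genes) and none at an adjusted p under 0.05 (smallest 0.263). Pigmented cell markers summed to 1.36 to 3.45 FPKM and 2.58 to 20.4 FPKM, and red blood cell markers to 0.243 to 1.73 FPKM and 0.407 to 22.6 FPKM, in the same order of groups, and the groups of both sums overlapped. Of the 8 pigmented and 4 red blood cell markers, 3 and 2 were tested, and these reached 1 FPKM only in their CS-exposed means. Being tested thus already favoured a higher CS-exposed level, so calls among them are not counted. None passed a limma adjusted p under 0.05. Their part in the gamma crystallin values was not tested.

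**Figure D4:**
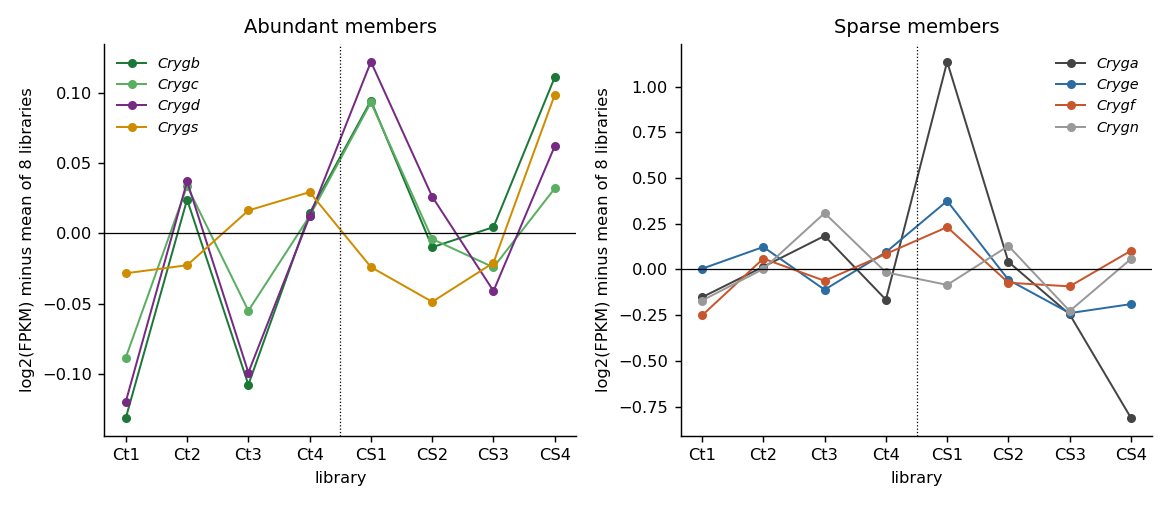
Log2(FPKM) of each member minus its mean over the 8 libraries, by library, with untreated Ct left and CS-exposed right of the dotted line, for the abundant (left) and sparse (right) members, on axes of different range. Crygb, Crygc and Crygd rise and fall together, except from CS2 to CS3, where Crygb rises slightly and the others fall. Crygs departs from them in Ct3 and CS1, and Cryga swings furthest, from 10.4 FPKM in CS1 to 2.71 FPKM in CS4.

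The sequence before the start of the genes was looked at because Crygb, Crygc and Crygd varied together across libraries, and because Crygd, Cryge and Crygf are near copies with levels far apart. The 100 bases upstream of the RefSeq start (GRCm38.p6) are given for the abundant members and for Cryge and Crygf. Capitals mark the TATA-like letters TATATA or TATAAA, and the letters CTTTTGTG or CCTTTGTG.
Crygb (chr1:65082291-65082390, minus strand): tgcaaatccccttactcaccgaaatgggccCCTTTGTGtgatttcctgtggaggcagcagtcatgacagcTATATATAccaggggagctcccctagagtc
Crygc (chr1:65073533-65073632, minus strand): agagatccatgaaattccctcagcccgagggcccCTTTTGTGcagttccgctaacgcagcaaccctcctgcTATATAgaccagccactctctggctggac
Crygd (chr1:65063441-65063540, minus strand): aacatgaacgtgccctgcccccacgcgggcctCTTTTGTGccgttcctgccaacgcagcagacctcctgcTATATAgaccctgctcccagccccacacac
Cryge (chr1:65051164-65051263, minus strand): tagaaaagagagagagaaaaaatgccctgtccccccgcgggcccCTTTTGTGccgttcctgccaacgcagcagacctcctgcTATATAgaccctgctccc
Crygf (chr1:65926422-65926521, plus strand): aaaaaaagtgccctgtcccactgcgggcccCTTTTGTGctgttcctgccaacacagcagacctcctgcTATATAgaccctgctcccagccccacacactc
Crygs (chr16:22811411-22811510, minus strand): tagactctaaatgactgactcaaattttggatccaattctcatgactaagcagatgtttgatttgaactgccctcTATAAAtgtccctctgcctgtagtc

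Both strands of the sequence from 250 bases before to 50 after the start were searched for each motif in 32851 promoters, and repeats of TATATA may overlap each other. CTTTTGTG was found in Cryga, Crygc, Crygd, Cryge and Crygf, and in 1.37% of all promoters. The form CCTTTGTG was found in Crygb, and in 2.00% of all promoters. TATATA was found in 7 members and in 5.67% of all promoters, and TATAAA in Crygs and in 13.6%. In the 100 bases shown, the longest run shared by Crygd and Cryge was 56 bases, by Crygd and Crygf 45 bases and by Cryge and Crygf 33 bases. The abundant Crygd (33139 FPKM) and the sparse Cryge (103 FPKM) thus had long runs in common both before the start and in exon 2. A match of letters is a description and not a site of binding.

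The gamma class was also set against the other crystallins. Gamma crystallins made up 26.7, 28.5, 26.8 and 28.1% of the summed FPKM of all 16 crystallins in Ct1 to Ct4 and 29.1, 27.9, 28.6 and 29.7% in CS1 to CS4. The mean was 27.5% ± 0.928 (SD, n = 4) in untreated Ct and 28.8% ± 0.754 (SD, n = 4) in CS-exposed libraries, with overlapping groups. Alpha crystallins made up 22.4% ± 0.703 and 21.6% ± 0.544, and beta crystallins 50.1% ± 0.746 and 49.6% ± 0.877, in the same order of groups, and shares of 1 sum are not independent of each other. Of the summed FPKM of all genes, gamma crystallins took 18.0% ± 0.607 in untreated Ct and 18.7% ± 0.524 in CS-exposed libraries. The groups were not tested against each other on these sums.

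The alpha crystallins, chaperones of the lens, and the beta crystallins, relatives of the gamma class that form oligomers, were read from the same limma fit. Of the 8 genes (Cryaa, Cryab, Cryba1, Cryba2, Cryba4, Crybb1, Crybb2 and Crybb3), 1 had a log2 fold change above 0 and 7 below, with 51.2% of all tested genes above 0, and none had an unadjusted p under 0.05, against 4.83% of all tested genes. Their median log2 fold change was -0.02. Cryaa had the smallest p of them, with a log2 fold change of -0.06 (SE 0.031, limma adjusted p = 0.956). Crybb2, the most abundant crystallin at 148490 FPKM in untreated Ct, had a log2 fold change of -0.03 (SE 0.030, limma adjusted p = 0.976).

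Of 18 regulators of crystallin genes or their messages, all tested, 10 had a log2 fold change above 0 and 8 below, with 51.2% of all tested genes above 0. None passed an adjusted p under 0.05, and 2 passed an unadjusted p under 0.05 (11.1%, against 4.83% of all tested genes). In these same 2 genes, or 11.1% of the list, the groups did not overlap, against 3.08% of all tested genes. Hsf4, a heat shock factor that fiber cells need and that binds crystallin promoters, was read at 135 to 141 FPKM in untreated Ct and at 143 to 151 FPKM in CS-exposed libraries. Its log2 fold change was 0.09 (SE 0.039, limma adjusted p = 0.956). Rarb, a retinoic acid receptor, was read at 0.893 to 1.32 FPKM in untreated Ct and at 1.33 to 1.68 FPKM in CS-exposed libraries, which is close to the minimum for testing. Its log2 fold change was 0.48 (SE 0.19, limma adjusted p = 0.956).

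None of the other 16 regulators passed an unadjusted p under 0.05. Foxe3, a factor of the lens epithelium, had the lowest log2 fold change at -0.42 (SE 0.26), followed by the retinoic acid receptors Rara at -0.30 (SE 0.21) and Rarg at -0.17 (SE 0.12) and the coactivator Crebbp at -0.13 (SE 0.12). Maf, a basic leucine zipper factor that activates crystallin genes, had a log2 fold change of 0.05 (SE 0.045) and Sox2, an early partner on crystallin enhancers, of 0.09 (SE 0.074). Prox1, a homeobox factor of fiber differentiation, had a log2 fold change of -0.02 (SE 0.047) and Pax6 of -0.07 (SE 0.096). The limma adjusted p of Maf, Sox2, Prox1 and Pax6 lay between 0.956 and 0.991. Tdrd7 and Celf1, whose proteins handle messenger RNA in the lens, had log2 fold changes of 0.04 each (SE 0.044 and 0.051).

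Genes whose levels ran most like the members over the 8 libraries were looked up among 2741 genes averaging 10 FPKM or more. The mean log2 level of Cryga, Crygb, Crygc and Crygd was most like that of Zscan29 (Pearson r = 0.945, Spearman rho = 0.976), Brf1 (r = 0.897, rho = 0.762), Psma2 (r = 0.856, rho = 0.69), Ik (r = 0.842, rho = 0.619) and Fip1l1 (r = 0.839, rho = 0.50), all with their highest value in CS1. That mean pattern is mostly Cryga, whose log2 levels had a within-group SD of 0.58 on 42 to 158 reads a library, against 0.054 to 0.073 in Crygb, Crygc and Crygd. Crygs was most like Rps15 (r = 0.944, rho = 0.976), Ccdc104 (r = 0.936, rho = 0.81), Psmd4 (r = 0.936, rho = 1), Ctnna2 (r = 0.909, rho = 0.714) and the beta crystallin Cryba2 (r = 0.905, rho = 0.976), all with their highest value in CS4. These are descriptions over 8 points that share library and depth, picked as the highest of many, and carry no p.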

How the data were processed

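Total RNA of lens FC was made into libraries (NEB Next Ultra kit) and sequenced as paired reads of 150 bases. Per the labels, the authors aligned them to GRCm38 with STAR 2.5, counted reads on genes (HTSeq 0.6.1) and deposited the FPKM of each library. The authors also deposited group means and the log2 fold changes, p-values and adjusted p-values of their DESeq2 comparison, which were not used here. Groups and replicate numbers were taken from the sample titles. The members and lists were chosen with earlier results of these data known.

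Genes averaging 1.0 FPKM or more in at least 1 of the groups were fitted on log2(FPKM + 0.1) with limma 3.58.1 (lmFit, eBayes with trend) in R 4.3.3, two-sided, with Benjamini-Hochberg adjustment over all 9794 genes and without covariates. The fit was tested on simulated data. Whole reads were recovered from FPKM steps (within 0.02 of a read, or within 0.002 for large values). Python 3.11.15 with pandas 2.3.3, scipy 1.17.1, numpy 2.4.6 and matplotlib 3.10.9 gave the other values and the plots. Exon sequences came from the GENCODE annotation of GRCm38 and promoters from RefSeq. The genes named were the 8 members, the other crystallins, the regulators, the marker lists and the 5 genes most like each of the patterns searched. Alternatives covered pseudocounts of 1 and 0.01, filters, scalings, eBayes options, the replicate block, each library left out, and, chosen after seeing the data, limma-voom on recovered reads and other gene lengths.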

Additional observations from a re-analysis of the deposited data

How the results depend on the processing

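No gamma crystallin passed an adjusted p under 0.05 under any of the 19 alternatives (lowest adjusted p 0.886, in Crygb). Of 152 member values, 141 kept their direction, 1 was 0 (Crygd with quantile normalization) and 10 turned, in Cryga, Cryge, Crygn and Crygs. Crygs turned with centring on the median (-0.0025), quantile normalization (-0.028) and scaling to genes other than crystallins (-0.0196). For the abundant members quantile normalization shows changes of rank only, so its values cannot tell whether a small difference holds. With single libraries left out, the log2 fold changes ran from -0.30 to 0.34 in Cryga, -0.19 to 0.0152 in Cryge, -0.13 to 0.0296 in Crygn and -0.0298 to 0.0192 in Crygs, and the cause was not tested. The number of members with an unadjusted p under 0.05 was 1 as reported. It was 0 with no minimum FPKM, centring, quantile normalization, scaling to genes other than crystallins and eBayes without a trend, 2 with limma-voom (Crygb and Crygd), and 0 to 2 with single libraries left out. Among all tested genes, 473 had an unadjusted p under 0.05 (269 higher and 204 lower). There were 862 among 21019 genes with no minimum FPKM and 226 among 4822 genes with a minimum of 5 FPKM, since the number tested changes. Scaling to genes other than crystallins gave 200 higher and 287 lower. Adjusted calls were 1 as reported, 0 with no minimum FPKM and without a trend, 2 with limma-voom, and 0 to 1 with single libraries left out.

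With the replicate number as a block there were 5 adjusted calls among all genes and none among the members. Same-numbered libraries of the groups correlated by 0.012, 0.078, 0.11 and 0.16 in their deviations from the group means. CS2, CS3 and CS4 each correlated best with the untreated Ct library of the same number, and CS1 with Ct2 (0.055). Libraries of different number correlated by -0.126 to 0.055. These correlations do not settle whether the numbers are pairs. They were not taken as pairs because the study does not describe them so. The share of gamma crystallins was higher in CS-exposed libraries by 1.02 to 1.64 percentage points of all crystallins, and by 0.478 to 0.895 points of all genes, with single libraries left out. The order of the levels left 5 of 8 members at their rank with either other gene length. Depth limits mainly Cryga, with at most 158 reads in a library.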

Other observations

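No library lay far enough from the others of its group to pass Dixon's 95% limit for 4 samples in any of the 20 groups of values looked at, 8 members and 2 shares in each group, where chance would give about 1. The nearest was Crygs in CS4, with a ratio of gap to range of 0.819, followed by Cryge in CS1 (0.747) and Cryga in CS1 (0.718).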
